A study of Homo sapiens with 42 samples.

Results

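The homeobox, paired box, T-box and SRY-related box families hold the transcription factors that lay out the embryo, and most of their members are silent in blood cells. In many cell types their CpG-rich promoters carry H3K27me3, the repressive histone mark written by EZH2, the catalytic subunit of Polycomb Repressive Complex 2 (PRC2). Loss of PRC2 activity is known to release some of these genes in embryonic cells, and retinoic acid is known as a patterning signal for several of them. The genes described here are those with a symbol in the PAX, SOX, TBX, LHX, NKX, POU3F, POU4F, DLX, IRX, OTX or GBX series or in that of SIX2 and SIX4, taken by name and not by their values: 89 of the 18417 genes measured, each on 1 probe set.

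The study asked whether lowering or inhibiting EZH2 promotes differentiation of HL-60 cells, a human acute myeloid leukaemia line of promyelocytic character, alone or with all-trans retinoic acid (ATRA). RNA of whole cultures was hybridised to 42 Affymetrix gene arrays in 14 groups of 3, and values are log2 levels. In the inhibitor experiment (18 arrays), cells received for 3 days 2.5 µM HKMTI-1-005, an inhibitor of EZH2 and of the H3K9 methyltransferases EHMT2 and EHMT1, or 10 µM GSK-343, a selective EZH2 inhibitor, or neither (untreated), each with or without 0.1 µM ATRA. In the knockdown experiment (24 arrays), cells carried a lentiviral hairpin against EZH2 (shEZH2#1 or shEZH2#2, together EZH2 KD) or a non-targeting hairpin, or were WT, each with or without ATRA. Hairpin cells had been grown in puromycin and then left to recover; the labels do not say whether WT cells were handled in the same way.

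The arrays carried the promyelocyte identity of the line and little of other lineages. All 7 measured promyelocyte markers lay among the top 40% of genes by mean level, with MPO (myeloperoxidase) at 12.95, whereas 0 of 32 markers of T, B, erythroid, epithelial, mesenchymal and neural cells did. EZH2 followed its labels: it measured 9.13, 9.20 and 9.49 in shEZH2#1 cells and 8.98, 9.56 and 9.33 in shEZH2#2 cells, against 10.26, 10.44 and 10.39 in non-targeting cells and 9.81, 9.92 and 10.34 in WT cells. Every EZH2 KD array was below every control array, and EZH2 fell by 1.08 against non-targeting cells (log2 scale, SE 0.134, adjusted p = 1.72e-05 by limma with Benjamini-Hochberg adjustment over all genes). Of the 24 knockdown arrays, 6 had a median over all probe sets above that of every inhibitor array (5.47 to 5.56, against 5.31 to 5.44 in the other knockdown arrays): non-targeting replicates 1 and 2, shEZH2#1 replicate 1, shEZH2#2 replicate 2, and replicate 3 of non-targeting + ATRA and of WT + ATRA.

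Most of the 89 developmental genes were at the level of genes of foreign lineages. Their median was 4.77 (quartiles 4.45 and 5.14), close to the 4.55 of the 32 other-lineage markers and below the 5.68 of the median gene, and 74 of the 89 lay below that median gene. Only 6 (6.74%) were among the top 40% of genes, whose lowest mean was 6.88. The related HOX cluster genes were alike in this: 1 of 27 (HOXD13, 7.80) reached the top 40%, and their median was 4.54. In contrast, of 31 measured Polycomb and related chromatin genes, 27 were in the top 40%, with a median of 7.97. The scale of these arrays has a floor, so a value near 4.5 cannot be read as a transcript level, and a probe set's level also depends on its probes.

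**Figure D1:**
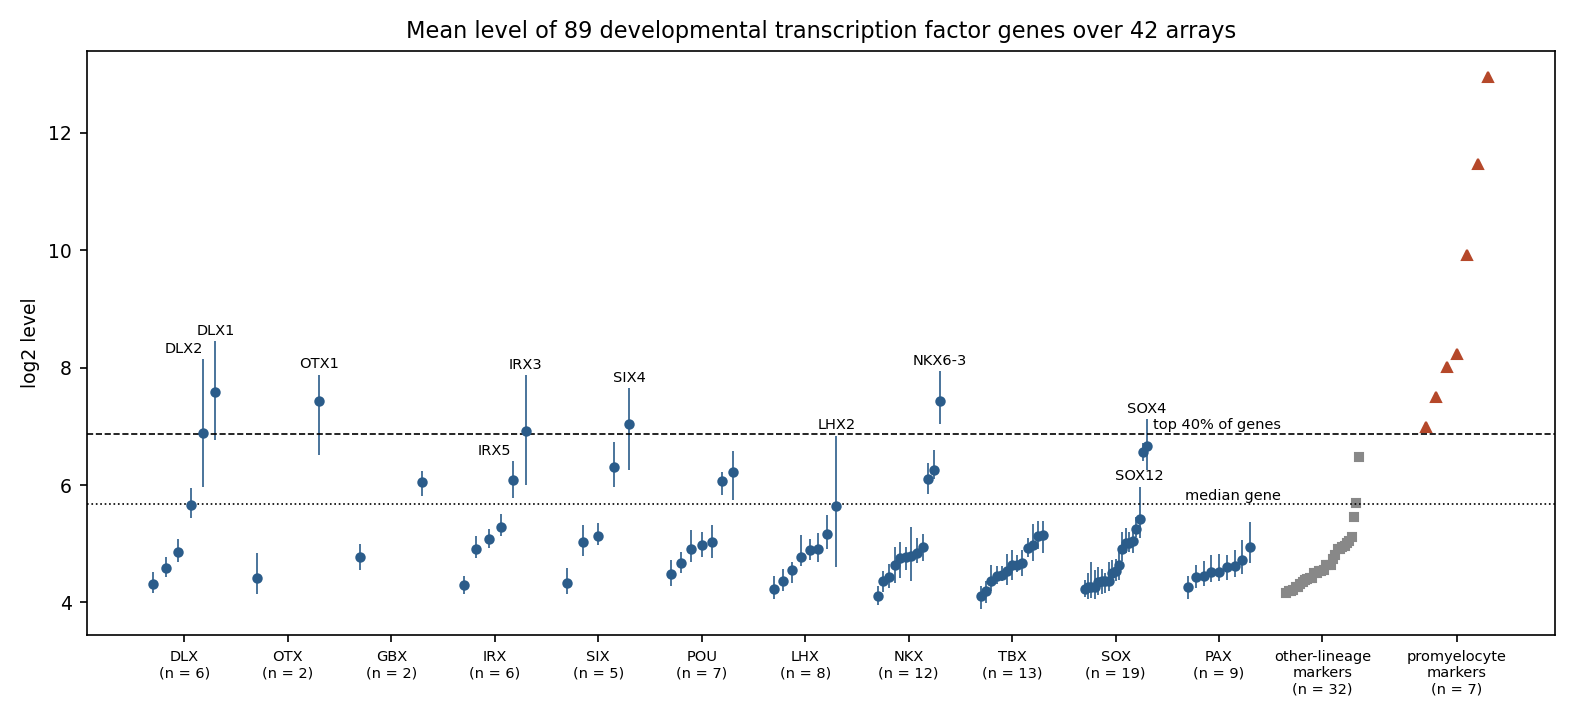
Mean log2 level over 42 arrays (y axis) of each of the 89 genes, by family (x axis, number of genes in brackets); thin bars run from the lowest to the highest array, squares are 32 markers of other lineages and triangles 7 promyelocyte markers. The dashed line at 6.88 is the lower limit of the top 40% of genes, passed by DLX1, DLX2, OTX1, IRX3, SIX4 and NKX6-3, and the dotted line at 5.68 is the median gene.

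The 6 genes above that limit came from 5 families. DLX1 (7.59) and DLX2 (6.89) encode distal-less homeodomain factors of forebrain interneurons and the branchial arches. OTX1 (7.43) acts in the developing forebrain, NKX6-3 (7.43) in stomach epithelium, SIX4 (7.03) in muscle precursors and IRX3 (6.91) in neural and cardiac patterning. SOX4 (6.66), a SOX factor of many progenitor cells, came next below the limit. The PAX genes, 9 in number, were the quietest as a family with a median of 4.51 and a highest mean of 4.95 for PAX6, the regulator of eye development. The 13 TBX genes reached no more than 5.15, in TBX19, a factor of pituitary corticotrophs. The highest GBX gene was GBX2 (6.06), which acts at the midbrain-hindbrain boundary, and the highest POU gene was POU4F1 (6.22), a factor of sensory neurons.

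Over the 14 group means, DLX2 varied most, with a range of 1.91, followed by LHX2 (1.48), DLX1 (1.14), IRX3 (0.87) and SIX4 (0.86). The median of the 89 genes stayed between 4.70 and 4.87 in each of the 42 arrays. On 4 arrays, 1 gene lay at least 1 log2 unit above its own mean: LHX2 in HKMTI-1-005 + ATRA replicate 1, and DLX2 in the 3 arrays of shEZH2#2. No array had more than 1 such gene.

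Most of these genes were low without a lack of CpG in the promoter. The 250 bases before the start were read for 62 of the 89 genes from RefSeq (GRCh38.p14), and held a median of 20 CpG dinucleotides, against 18 for 14177 other measured genes. A GC content over 50% together with a CpG observed-to-expected ratio over 0.6, the usual marks of a CpG island, was found in 47 of 62 promoters (75.8%) and in 62.0% of the others. Among genes outside the top 40% by level the shares were 75.9% (44 of 58) and 47.1%. Among the other measured genes in the top 40% the share was 81.7%, so there low level did go with fewer such promoters. Of the developmental genes in the top 40%, 3 had both marks and 1 (SIX4) did not, while IRX3 and NKX6-3 had no sequence. The 47 promoters with both marks belonged to genes of mean level 4.11 to 7.59, and the 15 without to genes of 4.26 to 7.03. The letters AGGTCA, the core to which retinoic acid receptors bind, were present on either strand in 4 of the 62 windows (6.45%) and in 9.71% of the others, and TATAAA in 3 (4.84%) and 8.61%. A match is a description of letters and does not show a binding site.

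The promoter windows of 4 genes that differed between groups are shown to compare their base composition, each 5′ to 3′ on the strand of the gene, with every CpG in capitals. LHX2 lies at chr9:124011518-124011767 (plus strand, 25 CpG), DLX1 at chr2:172085257-172085506 (plus, 23 CpG), DLX2 at chr2:172102901-172103150 (minus, 25 CpG) and SIX4 at chr14:60724352-60724601 (minus, 11 CpG). DLX1 holds 1 match to AGGTCA, on the opposite strand, and the others hold none.
LHX2: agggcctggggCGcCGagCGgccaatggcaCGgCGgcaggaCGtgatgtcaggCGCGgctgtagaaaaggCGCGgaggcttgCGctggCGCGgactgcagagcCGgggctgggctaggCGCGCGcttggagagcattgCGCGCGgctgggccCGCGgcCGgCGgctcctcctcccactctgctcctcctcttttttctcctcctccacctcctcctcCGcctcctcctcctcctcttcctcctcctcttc
DLX1: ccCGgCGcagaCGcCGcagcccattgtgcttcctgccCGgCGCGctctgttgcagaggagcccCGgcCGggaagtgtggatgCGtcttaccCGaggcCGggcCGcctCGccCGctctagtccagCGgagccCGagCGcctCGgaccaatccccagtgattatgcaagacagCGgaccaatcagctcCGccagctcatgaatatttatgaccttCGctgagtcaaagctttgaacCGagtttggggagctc
DLX2: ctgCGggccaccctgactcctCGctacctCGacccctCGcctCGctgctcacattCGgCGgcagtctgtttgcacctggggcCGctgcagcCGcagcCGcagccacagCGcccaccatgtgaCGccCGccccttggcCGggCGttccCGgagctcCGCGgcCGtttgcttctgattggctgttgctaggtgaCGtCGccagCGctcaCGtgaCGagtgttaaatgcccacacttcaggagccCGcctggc
SIX4: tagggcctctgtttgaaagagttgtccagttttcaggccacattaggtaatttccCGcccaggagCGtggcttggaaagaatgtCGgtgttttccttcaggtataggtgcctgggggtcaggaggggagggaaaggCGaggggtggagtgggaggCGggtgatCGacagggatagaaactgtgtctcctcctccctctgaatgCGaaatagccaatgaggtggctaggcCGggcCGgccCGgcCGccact

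**Figure D2:**
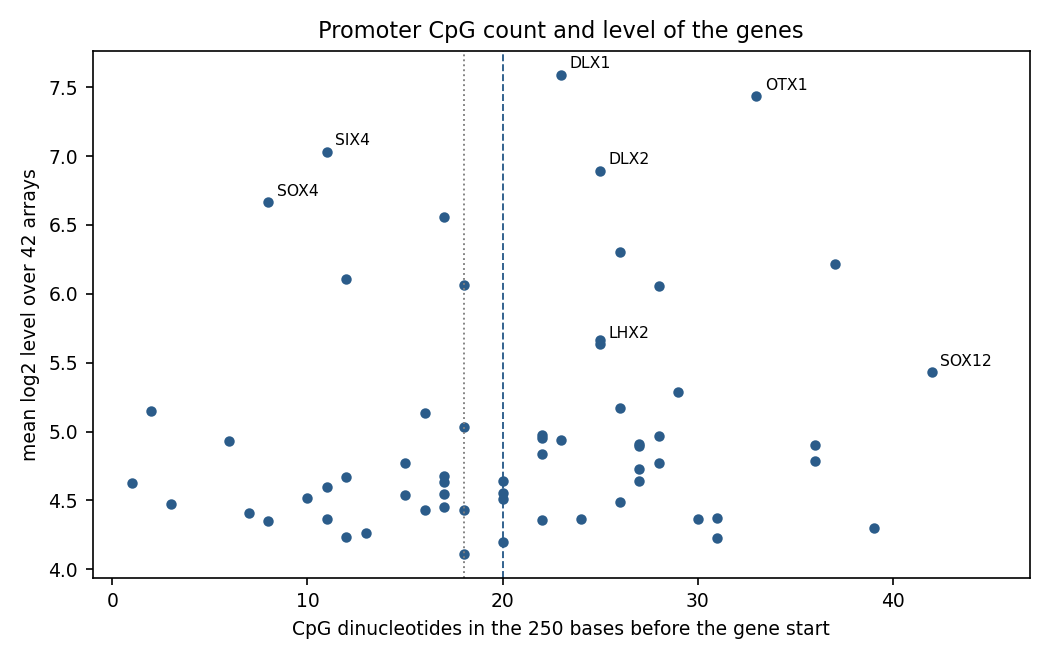
CpG dinucleotides in the 250 bases before the gene start (x axis) and mean log2 level over 42 arrays (y axis) for the 62 genes with a promoter sequence; the dashed line is their median of 20 and the dotted line the median of 18 of other measured genes. Genes with more than 30 CpG include OTX1, at a level of 7.43, and several between 4 and 5.

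After treatment with either inhibitor none of the 89 genes passed the test. A gene was called where the Benjamini-Hochberg adjusted p from limma, over all 18417 genes, was 0.05 or less and the fold change at least 1.3. Each count is given first for the top 40% of genes (7367 genes, 6 of these 89) and then over all genes. With HKMTI-1-005 against untreated cells, 0 and 0 of the developmental genes were called, where 0.217% of top genes and 0.223% of all genes were. With GSK-343 the counts were again 0 and 0, beside 0.0136% and 0.0217%. At an unadjusted p under 0.05, 2 of the 89 passed in each comparison (2.25%), against 5.33% of all genes for HKMTI-1-005 and 4.05% for GSK-343.

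The 95% intervals limit how large a rise could have been missed. For HKMTI-1-005 the highest upper limit among the 89 genes was 1.59-fold (DLX1), and 84 of the 89 had an upper limit under 1.3-fold. For GSK-343 the highest was 1.54-fold (IRX3), with 85 of 89 under 1.3-fold. These intervals are per gene and hold on the scale of the arrays, which can understate changes near the floor. The extremes were SIX4 (-0.30, adjusted p = 0.933) and LHX2 (0.22, adjusted p = 1) with HKMTI-1-005, and DLX2 (-0.48, adjusted p = 1) and PAX6 (0.16) with GSK-343.

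The same held where the inhibitors were added to ATRA. With HKMTI-1-005 + ATRA against ATRA alone, 0 and 0 of the genes were called (0.76% and 0.619% of top and of all genes), and with GSK-343 + ATRA also 0 and 0 (0.0136% and 0.0163%). The lowest value with HKMTI-1-005 + ATRA was that of POU4F1, at 5.97, 5.79 and 6.14, against 6.38, 6.40 and 6.51 with ATRA alone. The arrays did not overlap, but the difference of -0.46 (SE 0.167) did not pass over all genes (adjusted p = 0.236). With GSK-343 + ATRA the extremes were SIX4 (0.31, adjusted p = 1) and OTX2, a forebrain and retina factor (-0.17).

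**Figure D3:**
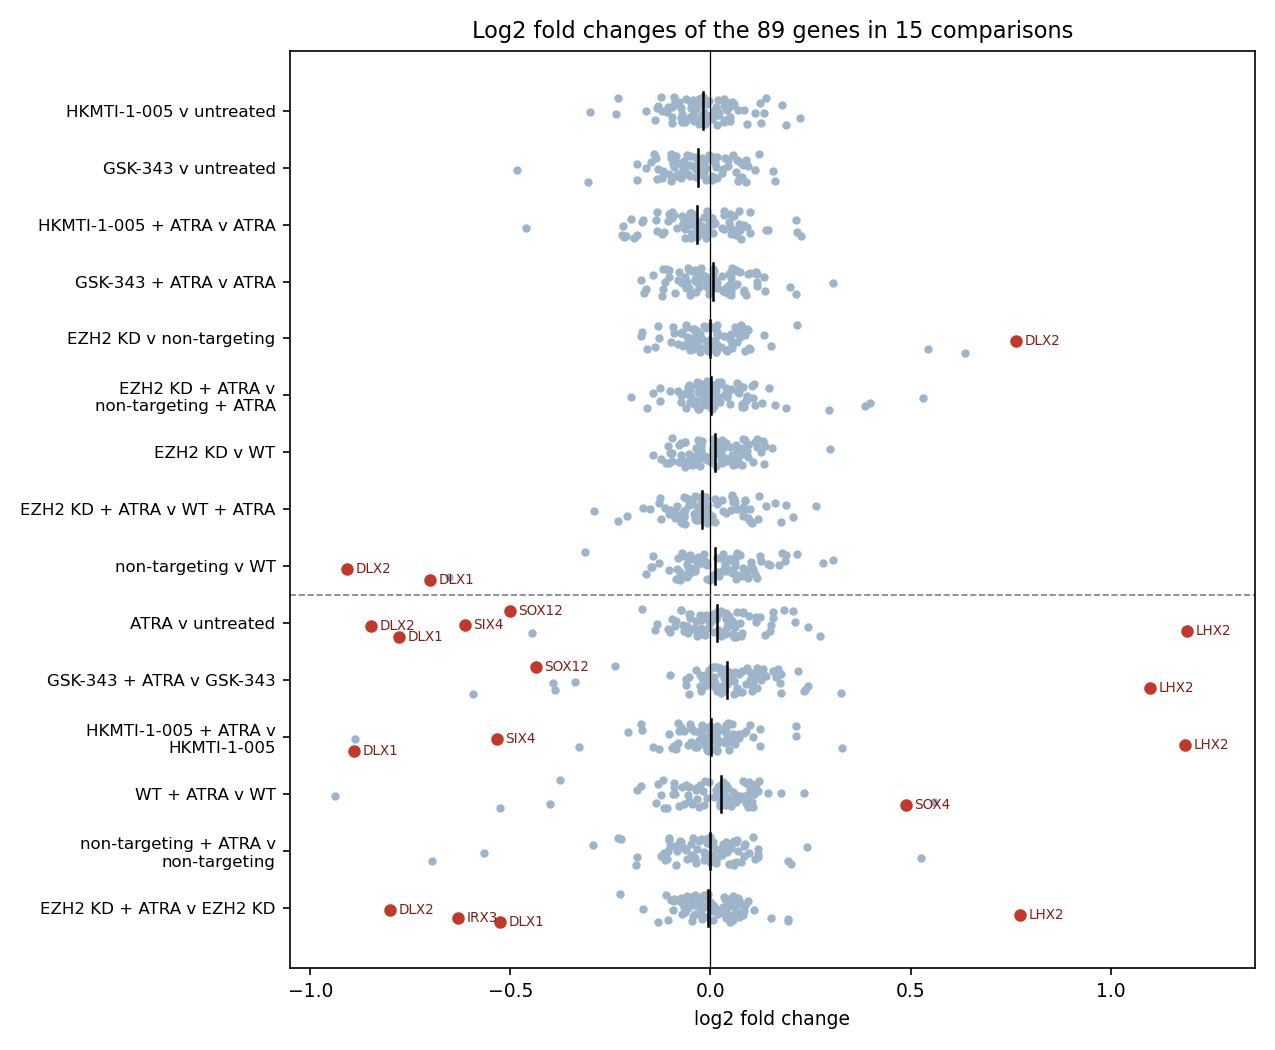
Log2 fold changes (x axis) of the 89 genes in 15 comparisons (rows); points are genes, black bars the median of the 89, and red points with names the genes called over all 18417 genes. Comparisons of inhibitor or hairpin stand above the dashed line and those of ATRA below it; in the 4 inhibitor rows no gene was called, and LHX2 is the rightmost point in 6 of 6 ATRA rows.

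In the EZH2 KD comparisons 1 gene, DLX2, passed the test, and only against the non-targeting control, a call that 1 array or another fit could remove. In EZH2 KD against non-targeting cells, 1 and 1 of the genes were called, where 6.12% of top genes and 3.25% of all genes were, a share of the 89 (1.12%) below that of all genes. The median log2 fold change of the 89 was -0.00, beside 0.01 over all genes. Among the 83 genes outside the top 40%, the highest upper 95% limit was 1.35-fold, and that of DLX2 was 2.34-fold. For those 83 genes it was 1.43-fold against WT cells. With ATRA in both arms it was 1.61-fold against non-targeting + ATRA and 1.40-fold against WT + ATRA cells. These limits hold on the scale of the arrays, which can understate changes near the floor. Against WT cells, 0 and 0 were called (0.407% and 0.342%), and the extremes were SIX2, a factor of kidney progenitors (0.30, adjusted p = 0.25), and DLX2 (-0.14, adjusted p = 0.863). With ATRA in both arms, 0 and 0 were called against non-targeting + ATRA cells (5.38% and 3.02%) and 0 and 0 against WT + ATRA cells (3.28% and 1.89%). The highest values there were DLX2 (0.53, adjusted p = 0.208) against non-targeting + ATRA and PAX5, the B cell factor (0.26, adjusted p = 0.14), against WT + ATRA. The lowest were SIX4 in both (-0.20 and -0.29).

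DLX2 differed between the hairpins. It measured 8.15, 7.97 and 7.93 in shEZH2#2 cells and 6.95, 7.34 and 6.30 in shEZH2#1 cells, against 6.61, 6.05 and 7.36 in non-targeting cells and 7.81, 7.67 and 7.26 in WT cells. The shEZH2#2 arrays were above every other array of the knockdown experiment, the shEZH2#1 arrays overlapped the non-targeting arrays, and non-targeting replicates 1 and 2 lay below every WT array. Against non-targeting cells DLX2 was higher by 0.76 in EZH2 KD cells (SE 0.225, 1.70-fold, adjusted p = 0.048), and missed with one fit per experiment (adjusted p = 0.144) and with a replicate block (adjusted p = 0.0638). Between the hairpins it was higher by 1.15 in shEZH2#2 cells (SE 0.26, 2.22-fold, adjusted p = 0.0372), the only 1 of the 89 genes called there, beside 0.396% of all genes. This call was lost with one fit per experiment (adjusted p = 0.151), after median centring (adjusted p = 0.0947) and with a replicate block (adjusted p = 0.0523). EZH2 itself averaged 9.29 with shEZH2#2 and 9.28 with shEZH2#1. With ATRA the hairpins differed by 0.82 in DLX2 (adjusted p = 0.26), and 0 of the genes were called, beside 0.391% of all genes.

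Values of the non-targeting control were spread in the DLX genes. Non-targeting cells against WT cells gave more calls than any hairpin or inhibitor comparison: 21.6% of top genes and 10.9% of all genes, and 2 and 2 of the 89, DLX1 and DLX2, both lower. DLX2 was lower by 0.91 on the log2 scale in non-targeting cells (SE 0.26, adjusted p = 0.022), and DLX1, at 7.04, 6.98 and 7.93 in non-targeting cells against 8.06, 8.04 and 7.95 in WT cells, by 0.70 (SE 0.236, adjusted p = 0.0464). OTX1 had the same shape, with 6.83, 6.52 and 7.57 in non-targeting cells against 7.57, 7.59 and 7.72 in WT cells, and missed the threshold (-0.65, adjusted p = 0.0514). In all 3 genes the low arrays were replicates 1 and 2, which are of the 6 arrays of high median, while replicate 3 was within or near the WT range. Without those 6 arrays, DLX2 differed by 0.07 between EZH2 KD and non-targeting cells (adjusted p = 0.995) and by -0.22 between non-targeting and WT cells (adjusted p = 0.999). This leaves 1 non-targeting array, assumed to vary like the arrays of the other groups. The difference in DLX2 between the hairpins was 1.22 without them (adjusted p = 0.0451). With 1 array left out, that call held only without shEZH2#1 replicate 2 (0.87 to 1.39 over the 6 arrays, adjusted p up to 0.182). Against non-targeting cells the call of DLX2 held only without non-targeting replicate 3, shEZH2#1 replicate 3 or shEZH2#2 replicate 2 (0.45 to 1.11, adjusted p up to 0.532). Between non-targeting and WT cells it held for DLX2 without non-targeting replicate 3 or WT replicate 3 (-1.25 to -0.60, adjusted p up to 0.244) and for DLX1 only without non-targeting replicate 3 (-1.01 to -0.53, adjusted p up to 0.288). Both comparisons share the non-targeting arrays. The extremes on the other side were NKX6-3 (0.31, adjusted p = 0.152) in non-targeting against WT cells, and TBX6, a factor of paraxial mesoderm (-0.17), in EZH2 KD against non-targeting cells.

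The genes of the Polycomb machinery were counted in the same comparisons. Of the 31 Polycomb and related chromatin genes, 0 were called in the 4 inhibitor comparisons, where 0.0163% to 0.619% of all genes were. EZH2 was called lower in all 4 EZH2 KD comparisons. With it, PCGF6, a subunit of a variant PRC1 complex, was lower in EZH2 KD + ATRA than in non-targeting + ATRA cells (-0.56, SE 0.149, adjusted p = 0.0297), where 3.02% of all genes were called. PCGF2, another PRC1 subunit, was lower in EZH2 KD + ATRA than in WT + ATRA cells (-0.52, SE 0.118, adjusted p = 0.0115), where 1.89% were. Neither PCGF gene was called against the other control. Both were also called in a comparison of ATRA: PCGF6 lower in EZH2 KD + ATRA than in EZH2 KD cells, where 7.65% of all genes were called. PCGF2 was higher with GSK-343 + ATRA than with GSK-343, where 6.07% were. No other gene of the 31 was called in a comparison of ATRA. The control comparison also called 2 of the 31, where 10.9% of all genes were called. EZH1, the paralog of EZH2, was higher (0.42, adjusted p = 0.0484) and MTF2, a PRC2 accessory subunit, lower (-0.38, adjusted p = 0.0316) in non-targeting than in WT cells. Among the HOX genes, 0 of 27 were called in the 4 inhibitor comparisons and in the 4 of EZH2 KD cells against a control, where 0.0163% to 3.25% of all genes were. HOXD13 was the 1 of 27 called in non-targeting against WT cells and in EZH2 KD + ATRA against EZH2 KD cells. In those comparisons 10.9% and 7.65% of all genes were called.

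Treatment with ATRA changed a few of these genes, and in the inhibitor experiment LHX2 most of all. The share of all genes called was also higher with ATRA than in the inhibitor comparisons (0.0163% to 0.619%). In the inhibitor experiment 3 of the 6 top genes and 5 of the 89 were called with ATRA against untreated cells, where 13.1% of top genes and 7.29% of all genes were. LHX2, a LIM homeodomain factor of the forebrain, eye and hair follicle, was higher, and SIX4, SOX12, DLX1 and DLX2 were lower. The 5 make up 5.62% of the 89, a share not above that of all genes, and the median log2 fold change of the 89 was 0.02.

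LHX2 measured 6.40, 6.22 and 5.97 with ATRA, against 5.11, 4.95 and 4.96 in untreated cells. It measured 6.06, 5.93 and 6.12 with GSK-343 + ATRA, against 4.61, 5.10 and 5.10 with GSK-343. With HKMTI-1-005 + ATRA it measured 6.84, 6.20 and 6.21, against 4.96, 5.25 and 5.47 with HKMTI-1-005. In each pair every ATRA array was above every array without ATRA. The rise was 1.19 with ATRA alone (SE 0.161, 2.28-fold, adjusted p = 7.66e-06), 1.10 under GSK-343 (adjusted p = 3.98e-05) and 1.19 under HKMTI-1-005 (adjusted p = 1.04e-05). In cultures measured whole, more RNA per cell and more cells with the transcript cannot be told apart.

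In the knockdown experiment LHX2 was also higher on every ATRA array than on the arrays of the same cells without it. It measured 6.43, 6.32 and 6.22 in shEZH2#2 + ATRA cells, against 5.32, 5.22 and 5.46 in shEZH2#2 cells, and 5.80, 5.99 and 5.94 in shEZH2#1 + ATRA cells, against 5.22, 5.18 and 5.65 in shEZH2#1 cells. Non-targeting + ATRA cells measured 5.70, 5.85 and 5.60, against 5.30, 5.09 and 5.18 in non-targeting cells. WT + ATRA cells measured 5.94, 6.22 and 5.57, against 5.37, 5.40 and 5.29 in WT cells. The rise passed over all genes in EZH2 KD cells (0.77, SE 0.114, 1.71-fold, adjusted p = 8.38e-06) and missed in non-targeting cells (0.53, SE 0.161, adjusted p = 0.0753) and in WT cells (0.56, SE 0.161, adjusted p = 0.0899). Over all 42 arrays the mean of LHX2 was 5.64, below the 6.88 limit of the top 40%. LHX2 is therefore not among the genes that this limit on expression keeps. Even after ATRA its mean stayed below 6.88 in each group (highest 6.41, HKMTI-1-005 + ATRA).

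**Figure D4:**
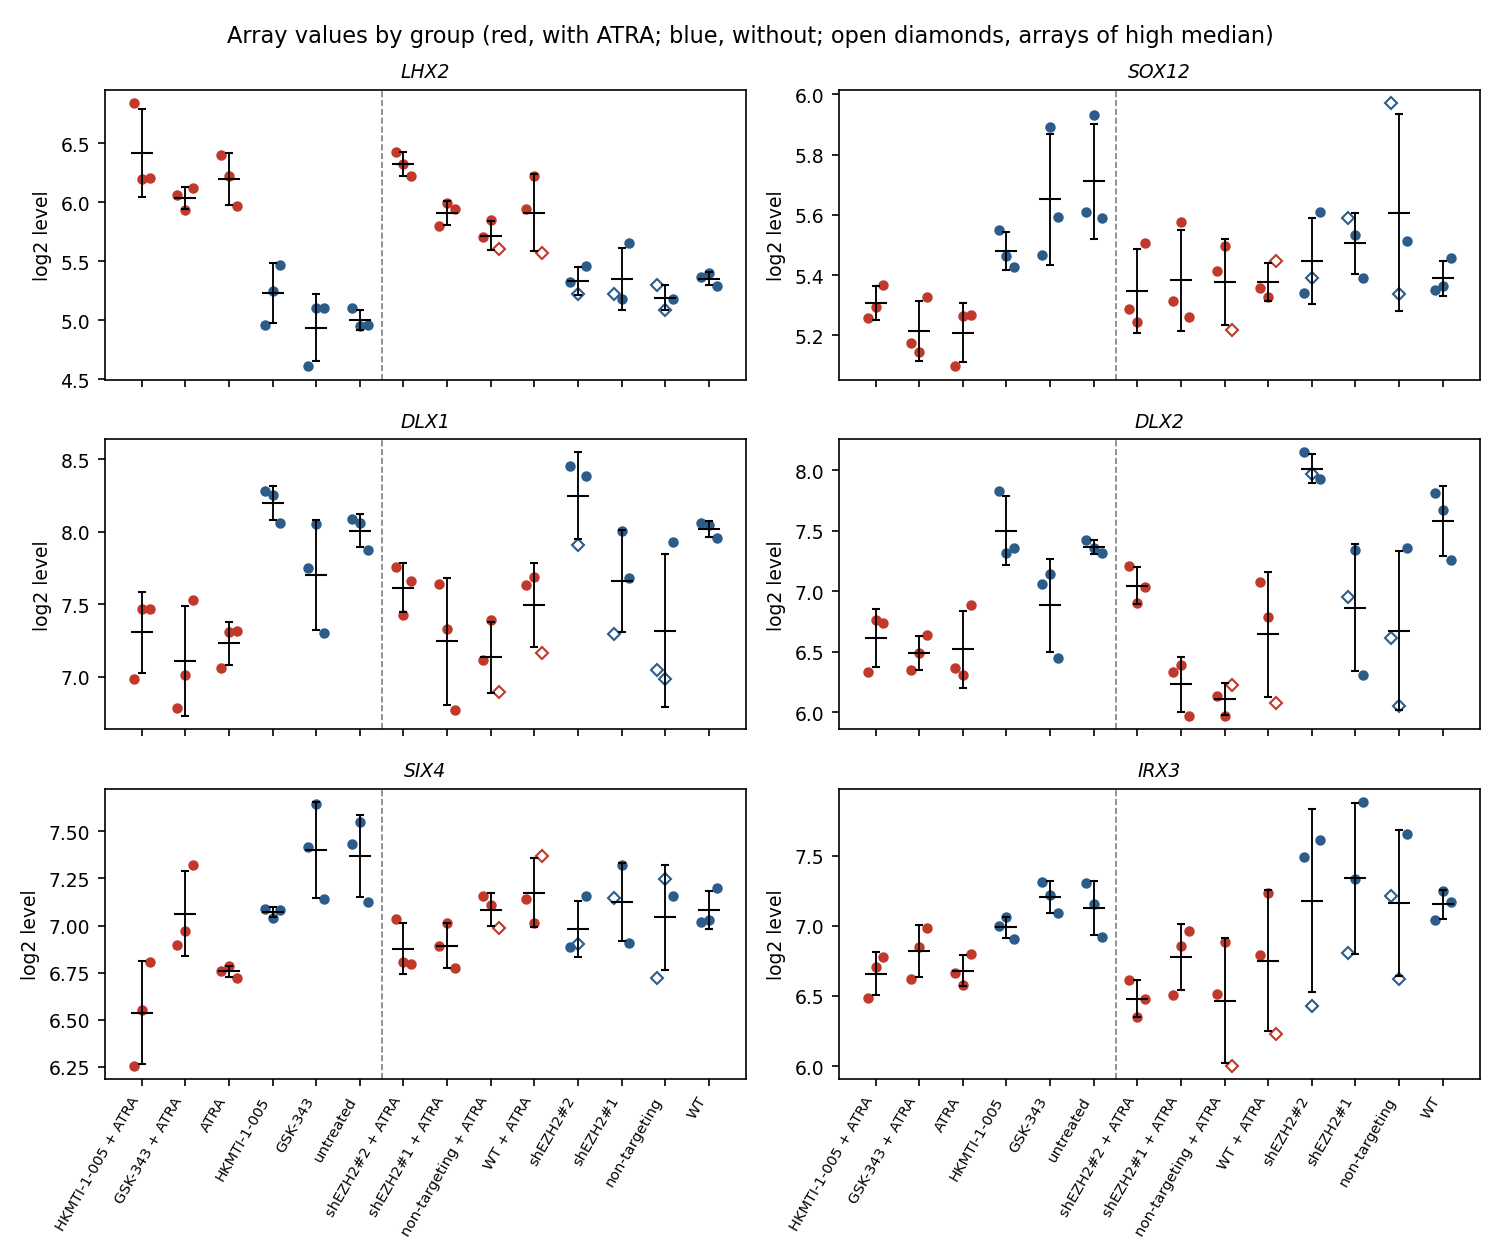
Log2 level (y axis) of LHX2, SOX12, DLX1, DLX2, SIX4 and IRX3 in the 14 groups (x axis; inhibitor experiment left of the dashed line); points are arrays, red with and blue without ATRA, open diamonds the 6 knockdown arrays of high median, and bars the mean and SD of 3 arrays. LHX2 is higher with ATRA in each pair of groups, and DLX2 is highest in shEZH2#2, at 7.93 to 8.15.

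DLX1 and DLX2 were lower with ATRA. DLX1 measured 7.06, 7.31 and 7.32 with ATRA, against 8.09, 8.06 and 7.87 in untreated cells, and DLX2 measured 6.36, 6.31 and 6.88, against 7.43, 7.36 and 7.32. Neither gene's arrays overlapped. DLX1 fell by 0.78 (SE 0.236, adjusted p = 0.0341) and DLX2 fell by 0.85 (SE 0.26, adjusted p = 0.0371). After median centring both missed (DLX1 -0.77, adjusted p = 0.0952, and DLX2 -0.84, adjusted p = 0.0757), as did DLX2 after quantile normalization (-0.79, adjusted p = 0.0584). With 1 array left out, DLX1 passed only without untreated replicate 3 and DLX2 only without ATRA replicate 3 (-0.84 to -0.69 and -1.03 to -0.74 over the 6 arrays, adjusted p up to 0.171 and 0.17). Under HKMTI-1-005, ATRA lowered DLX1, to 6.98, 7.47 and 7.47, against 8.28, 8.25 and 8.06 with HKMTI-1-005 (-0.89, adjusted p = 0.0286), a call lost without replicate 1 or 2 of either group (-0.97 to -0.73, adjusted p up to 0.209). DLX2 differed there by the same -0.89 and missed the threshold (adjusted p = 0.0571). Under GSK-343 neither passed (DLX1 -0.59, adjusted p = 0.143; DLX2 -0.39, adjusted p = 0.474), and GSK-343 replicate 3 was low in both genes, at 7.30 and 6.44.

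In EZH2 KD cells ATRA also lowered both: DLX2 by -0.80 (SE 0.184, adjusted p = 0.00259) and DLX1 by -0.52 (SE 0.167, adjusted p = 0.0335). The call of DLX2 was kept whichever of the 12 arrays was left out; that of DLX1 was lost without shEZH2#1 replicate 2 or 3, shEZH2#2 replicate 1 or 3, shEZH2#2 + ATRA replicate 2 or shEZH2#1 + ATRA replicate 3 (-0.62 to -0.41, adjusted p up to 0.13). DLX2 measured 7.21, 6.90 and 7.03 in shEZH2#2 + ATRA cells and 6.33, 6.39 and 5.97 in shEZH2#1 + ATRA cells. The shEZH2#2 arrays with ATRA were all below those without it, while 2 of the 3 shEZH2#1 + ATRA arrays stayed above the lowest shEZH2#1 array. In WT + ATRA against WT cells DLX2 differed by -0.94 (adjusted p = 0.0705) and DLX1 by -0.52 (adjusted p = 0.446). In non-targeting cells the differences were -0.57 (adjusted p = 0.293) and -0.19 (adjusted p = 0.786). There, replicates 1 and 2 without ATRA were low and replicate 3 was within or near the WT range. That of DLX2 ran from -0.88 without non-targeting replicate 2 to -0.22 without non-targeting replicate 3, and was -1.31 without the 6 arrays of high median (adjusted p = 0.0748).

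DLX1 and DLX2 are neighbours on chromosome 2 and varied together. Over the 14 group means their Pearson correlation was 0.953, and over the 42 arrays, after each group's mean was taken away, it was 0.662. That was the 8th highest of the 3916 pairs among the 89 genes. The 18 pairs that lie within 1 Mb of each other had a median correlation of 0.0844 over arrays, against 0.0494 for the 3898 others. IRX3 and IRX5, also neighbours, had 0.318 over arrays and 0.69 over group means. These correlations are descriptions over arrays that share batches and a normalization.

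**Figure D5:**
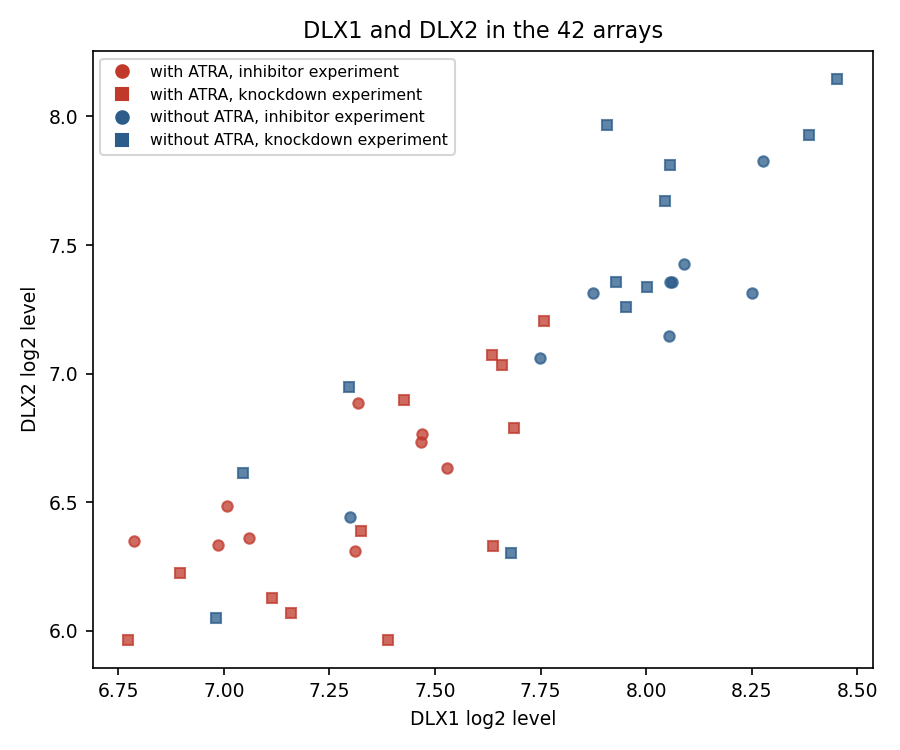
DLX1 (x axis) and DLX2 (y axis) log2 levels on the 42 arrays; red with and blue without ATRA, circles the inhibitor and squares the knockdown experiment. The highest DLX2 values, 7.93 to 8.15, belong to shEZH2#2, and the lowest, from 5.97, to arrays of the knockdown experiment, with ATRA or, at 6.05, non-targeting without it.

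SIX4 and SOX12 were lower with ATRA alone, SIX4 also under HKMTI-1-005 and SOX12 also under GSK-343. SIX4 measured 6.76, 6.78 and 6.72 with ATRA, against 7.43, 7.55 and 7.13 in untreated cells (-0.61, SE 0.145, adjusted p = 0.00576). It measured 6.25, 6.55 and 6.80 with HKMTI-1-005 + ATRA, against 7.09, 7.04 and 7.08 with HKMTI-1-005 (-0.53, SE 0.145, adjusted p = 0.0356). SOX12, of the same SOX subgroup as SOX4, measured 5.10, 5.26 and 5.27 with ATRA, against 5.61, 5.93 and 5.59 in untreated cells (-0.50, SE 0.122, adjusted p = 0.00736). With GSK-343 + ATRA it measured 5.17, 5.14 and 5.33, against 5.47, 5.89 and 5.59 with GSK-343 (-0.44, SE 0.122, adjusted p = 0.0239). In each of these pairs the arrays did not overlap. The other pairs did not pass: SIX4 measured 6.90, 6.97 and 7.32 with GSK-343 + ATRA, against 7.42, 7.65 and 7.14 with GSK-343 (-0.34, adjusted p = 0.185). SOX12 measured 5.26, 5.29 and 5.37 with HKMTI-1-005 + ATRA, against 5.55, 5.46 and 5.43 with HKMTI-1-005, without overlap (-0.17, adjusted p = 0.699). With ATRA alone, SIX4 lost its call without untreated replicate 2 (adjusted p = 0.0575) and SOX12 without untreated replicate 2 or ATRA replicate 1 (adjusted p up to 0.0909). Under HKMTI-1-005, SIX4 passed only without HKMTI-1-005 + ATRA replicate 3 (-0.67 to -0.39, adjusted p up to 0.298) and missed after median centring (adjusted p = 0.102), quantile normalization (adjusted p = 0.052) and with a replicate block (adjusted p = 0.0539), and under GSK-343 SOX12 was lost without GSK-343 replicate 2 or GSK-343 + ATRA replicate 1 or 2 (-0.53 to -0.32, adjusted p up to 0.241). In WT + ATRA cells, by contrast, SIX4 measured 7.14, 7.01 and 7.37, against 7.02, 7.03 and 7.20 in WT cells, and the arrays overlapped (0.09, adjusted p = 0.9). SOX12 differed there by -0.01 (adjusted p = 0.99).

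The calls with ATRA under each inhibitor were 2 of the 89 with GSK-343 (LHX2 higher, SOX12 lower), where 6.07% of all genes were called, and 3 of the 89 with HKMTI-1-005 (LHX2 higher, DLX1 and SIX4 lower), where 2.71% were. The difference between the ATRA responses was tested itself. The term for HKMTI-1-005 against no inhibitor called 0 of the 89 (0.00543% of all genes) and that for GSK-343 called 0 (0%, or 0 of 18417 genes by limma, with 1.6% at an unadjusted p under 0.05). For LHX2 the response differed by -0.01 with HKMTI-1-005 (95% interval -0.47 to 0.46) and by -0.09 with GSK-343 (-0.56 to 0.37).

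In the knockdown experiment the calls with ATRA were counted for each kind of cell. In WT + ATRA against WT cells 0 and 1 were called, beside 2.13% of top genes and 1.32% of all genes. The 1 was SOX4, at 7.06, 6.97 and 6.89 in WT + ATRA cells, against 6.49, 6.38 and 6.59 in WT cells (0.49, SE 0.112, 1.40-fold, adjusted p = 0.0148), with no overlap, and the call was lost without replicate 1 or 2 of either group (0.43 to 0.54, adjusted p up to 0.116). In untreated cells ATRA left SOX4 at 6.60, 6.67 and 6.81, against 6.57, 6.64 and 6.46 (0.14, adjusted p = 0.603). In non-targeting + ATRA against non-targeting cells 0 and 0 were called (4.98% and 2.57%). In EZH2 KD + ATRA against EZH2 KD cells 3 and 4 were called (14% and 7.65%): LHX2 higher, and DLX1, DLX2 and IRX3 lower. IRX3 measured 6.61, 6.35 and 6.48 in shEZH2#2 + ATRA and 6.51, 6.86 and 6.96 in shEZH2#1 + ATRA cells, against 7.49, 6.43 and 7.61 in shEZH2#2 and 6.80, 7.33 and 7.88 in shEZH2#1 cells (-0.63, SE 0.188, adjusted p = 0.0225). In non-targeting + ATRA cells it measured 6.52, 6.88 and 6.00, against 7.21, 6.62 and 7.66 in non-targeting cells, and did not pass (-0.70, SE 0.266, adjusted p = 0.178). WT + ATRA cells, at 6.79, 7.23 and 6.23, against 7.04, 7.25 and 7.17 in WT cells (-0.40, adjusted p = 0.682), and ATRA against untreated cells (-0.45, adjusted p = 0.398) did not pass either. The low EZH2 KD arrays without ATRA, shEZH2#2 replicate 2 and shEZH2#1 replicate 1, were those of high median, and without the 6 such arrays the difference was -0.95 (adjusted p = 7.04e-07). The call of IRX3 was lost without shEZH2#1 replicate 3, shEZH2#2 replicate 1 or 3, shEZH2#1 + ATRA replicate 1 or shEZH2#2 + ATRA replicate 2 (-0.82 to -0.50, adjusted p up to 0.0869).

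Between cell backgrounds, the test of the difference in ATRA response called none of the 89 genes. The term for EZH2 KD against non-targeting cells called 0 of the 89 (0.0814% of all genes), and for LHX2 the response differed by 0.25 (95% interval -0.15 to 0.65). The term for untreated cells of the inhibitor experiment against WT cells called 0 (0.0217%). Its largest differences were SIX4 (-0.71, 95% interval -1.12 to -0.29, adjusted p = 0.327) and LHX2 (0.63, 0.17 to 1.10, adjusted p = 0.486).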

How the data were processed

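Total RNA of HL-60 cultures was hybridised to Affymetrix Human Gene ST arrays, which have 1 colour. The authors normalized the arrays by GC-RMA in Partek Genomics Suite and removed batch and date effects; no versions are given in the sources used here, nor are the batches named. The deposited log2 values (3.18 to 14.49, 33297 probe sets) were used as they stand; the log2 scale was read from their range. Removal of batch effects before deposit can make the spread between arrays look smaller, and GC-RMA compresses differences near the floor.

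Of the probe sets, 19460 carry 1 gene symbol in the platform annotation, 1754 several and 12083 none. For each of 18417 genes the probe set of highest mean over all arrays was kept. One limma fit (version 3.58.1, R 4.3.3) with a mean for each of the 14 groups gave all contrasts, without a batch term; EZH2 KD is the equal-weight mean of both hairpins. Calls needed a Benjamini-Hochberg adjusted p up to 0.05 and a change of 1.3-fold or more, with and without the study's limit of the top 40% by mean. Arrays limit the precision by their number, 3 per group, called biological triplicates by the study. Where only adjusted values are printed they come from this fit.

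There were 13 planned comparisons; 4 further comparisons and 4 interaction terms were added after the data were seen. The genes and lists were chosen with earlier results of these data known. Genes named are those in the top 40%, those called in any planned comparison, the highest and lowest of each, and the highest of each family; of the Polycomb list, EZH2 and those called in an inhibitor or knockdown comparison, to which those of non-targeting against WT were added. Promoter sequences are from RefSeq (GRCh38.p14), and the fit was tested on simulated data. Alternatives were a variance trend with robust fit, the replicate number as a block, one fit per experiment, median centring, quantile normalization, no expression or fold limit, the mean of all probe sets, a t-test, and leaving out arrays.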

Additional observations from a re-analysis of the deposited data

How the results depend on the processing

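Among the gene differences named in the text and recomputed, none changed sign. Of 21 comparisons and interaction terms, 12 kept their count of called developmental genes under every alternative, with the t-test taken after adjustment. Each of those 12 counts was 0, among them those of the 4 inhibitor comparisons. In the 13 planned comparisons only genes in the top 40% could be counted, 6 of the 89, except in the alternative without the expression limit. The adjusted t-test called 0 of all top genes in the 4 inhibitor comparisons, so it could not have moved their counts. Every count above 0 moved under some alternative. The other counts moved as follows, and the cause was not tested. EZH2 KD against non-targeting cells, 1 gene, gave 0 with one fit per experiment and without the arrays of high median, 2 (DLX1 and DLX2) after quantile normalization, and 0 to 3 with 1 array left out; DLX2 lost its call without any of 6 of the 9 arrays (0.45 to 1.11, adjusted p up to 0.532). ATRA against untreated cells, 3 genes, gave 5 without the expression limit, 1 (SIX4) after median centring, and 0 to 2 with 1 array left out. WT + ATRA against WT cells, 0, gave 1 (SOX4) without the limit and 0 to 1 with an array left out. Non-targeting + ATRA against non-targeting cells, 0, gave 1 (IRX3) without the arrays of high median and 0 to 1 with an array left out. EZH2 KD + ATRA against EZH2 KD cells, 3, gave 1 (DLX2) with one fit per experiment and after centring, and 1 to 3 with an array left out. Non-targeting against WT cells, 2, gave 0 with one fit per experiment and without the arrays of high median, and 0 to 4 with an array left out. ATRA under GSK-343, 2, gave 1 (LHX2) after centring and after quantile normalization, and under HKMTI-1-005, 3, gave 1 (LHX2) after centring, 2 after quantile normalization and 4 with one fit per experiment, with SIX4 called in 4 of 8 alternatives; both gave 1 to 3 with an array left out. The hairpins against each other, 1 (DLX2), gave 0 with one fit per experiment and after centring, and 0 to 1 with an array left out.

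The call of LHX2 with ATRA was kept whichever array was left out in untreated (1.09 to 1.31), GSK-343 (0.94 to 1.18), HKMTI-1-005 (0.97 to 1.31) and EZH2 KD cells (0.73 to 0.85). In WT cells it passed without WT + ATRA replicate 3, an array of high median (0.73, adjusted p = 0.0187). A t-test at an unadjusted threshold was also run, with the same fold and expression limits. The study names an unpaired t-test for its statistics in general, but false discovery rate testing for its array gene lists. The t-test called 4 developmental genes with ATRA against untreated cells. With ATRA it called 3 in EZH2 KD, 3 in HKMTI-1-005, 1 in GSK-343 and 1 in WT cells. Between the hairpins it called 1 with and 1 without ATRA, and in the other comparisons 0. After Benjamini-Hochberg adjustment it called 0 in every comparison; EZH2 kept its difference of -1.08 and missed (adjusted p = 0.124), and with 1 array left out EZH2 ranged from -1.149 to -1.005 in limma.

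The deviations of same-numbered arrays had a mean correlation of -9.12e-05 in the inhibitor and -0.0248 in the knockdown experiment. Single pairs of arrays ranged from -0.582 to 0.588 and from -0.728 to 0.656. Batch effects were removed before deposit, so these values cannot show whether the numbers pair the samples. With the replicate block, EZH2 KD against non-targeting cells gave 0, non-targeting against WT cells 1 (DLX2) and the hairpins against each other 0; no other count moved by over 1.5 times.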

Other observations

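IRX5, an Iroquois gene next to IRX3, passed the adjusted threshold in several comparisons but not the fold minimum, and is named after its values were seen. It measured 6.00, 5.96 and 5.87 in WT + ATRA cells, against 6.36, 6.41 and 6.18 in WT cells, with no overlap (-0.37, SE 0.0737, adjusted p = 0.00313). In EZH2 KD cells ATRA gave -0.22 (adjusted p = 0.00281), and with GSK-343 + ATRA against GSK-343 it gave -0.24 (adjusted p = 0.0439). In non-targeting cells IRX5 averaged 6.00 both with and without ATRA. Its mean was 6.04 with HKMTI-1-005 + ATRA against 6.12 with HKMTI-1-005, and 5.96 with ATRA against 6.14 in untreated cells. In EZH2 KD against non-targeting cells IRX5 differed by 0.22 (adjusted p = 0.0486), at 6.23, 6.08 and 6.18 in shEZH2#2 and 6.15, 6.40 and 6.29 in shEZH2#1 cells, against 6.05, 5.90 and 6.07 in non-targeting cells. It averaged 6.16 in shEZH2#2 and 6.28 in shEZH2#1 cells, against 6.32 in WT cells, and was lower in non-targeting than in WT cells (-0.31, adjusted p = 0.00765). TBX10, a T-box gene at a mean of 4.93, differed by -0.13 with ATRA in EZH2 KD cells (adjusted p = 0.0234), short of the fold minimum. Its within-group SD of 0.0574 was the smallest of the developmental genes. The differences of IRX5 and TBX10 were not recomputed under the alternatives.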
